A study of Arabidopsis thaliana with 14 samples.

Results

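The 4 harvests of Landsberg erecta (Ler) wild type seed compared here are the seed batches lettered A to D in the sample labels, each measured on 2 arrays, 1 on KAR1 and 1 on water. They make up 8 of the 14 arrays of the series. The arrays were taken by these labels. The other 6 arrays hold seed of ga1-3, a mutant that makes too little gibberellin to germinate, and are used only where a level is set beside theirs. All seed was primary dormant, was collected from plants in continuous light and was kept at -80 C until use. It was imbibed for 24 h at 20 C in white light of 100 uE on agar of 0.8%, with or without 1 uM KAR1. All 8 arrays are thus of 1 genotype, labelled wild type. Ler itself carries the erecta mutation, which the harvests share. A harvest is a single lot of seed whose arrays share that lot, and the number of plants behind a lot is not given in the sources used here.

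KAR1 is the karrikin, a butenolide of smoke, that breaks dormancy in this species, and the response to it passes through the receptor KAI2 and the F-box protein MAX2. Dormancy of ripe seed depends on the light, temperature and water supply of the mother plant and on storage, so seed lots of a single genotype commonly differ in it. Dry seed carries stored transcripts, among them those for late embryogenesis abundant (LEA) proteins, which protect cells during drying. Its plastids and mitochondria have genomes of their own. These are transcribed largely in units of several genes, and most of their transcripts carry no long poly(A) tail.

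Values are log2 of the deposited intensity. A probe set was tested if it reached an intensity of 16 on at least 1 of the 8 arrays, which left 11669 of the 22746 probe sets that are not controls. The median intensity per array over those 22746 lay between 10.5 and 12.7. A difference was called when the Benjamini-Hochberg adjusted p over all 11669 probe sets, from limma with harvest and treatment as additive terms, was under 0.05. Every p below is such an adjusted p unless it is said to be unadjusted, and ± after a difference is its standard error. The spread behind it is that between the KAR1 array and the water array of a harvest after the mean effect of KAR1, with 3 residual degrees of freedom. These p-values therefore measure the spread between these arrays, which share their seed, and not that between lots of a population.

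The tissue label held for every array. The seed storage vicilin PAP85 had a log2 intensity of 14.54 and 14.59 on the KAR1 and water arrays of harvest A, against 14.53 to 14.68 on the 6 arrays of harvests B to D. It did not pass the test between A and the others, with a log2 difference of -0.04 ± 0.04 (adjusted p = 0.401). Transcripts of other tissues could be read only in part. No probe set was named for the 6 endosperm genes listed, and the 2 testa and flavonoid genes with a probe set lay under 16 on all 8 arrays.

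The 2 arrays of harvest A stood far from those of harvests B, C and D. Seed lot and any handling that the 2 arrays of a harvest shared cannot be told apart, for A as for the others. Over all 4 letters, 5410 of 11669 probe sets differed among harvests in the F test (46.4%). Between A and the mean of B to D, 5957 probe sets passed (51.0%), of which 2064 were higher in A (17.7%) and 3893 lower (33.4%). Of these, 664 higher and 467 lower ones were at least 2-fold apart. The effect of KAR1 in the same fit had 48 calls (0.411% of probe sets), 42 higher (0.36%) and 6 lower (0.0514%) on KAR1. Both arrays of A lay outside the range of the other 6 for 5971 probe sets (51.2%).

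**Figure D1:**
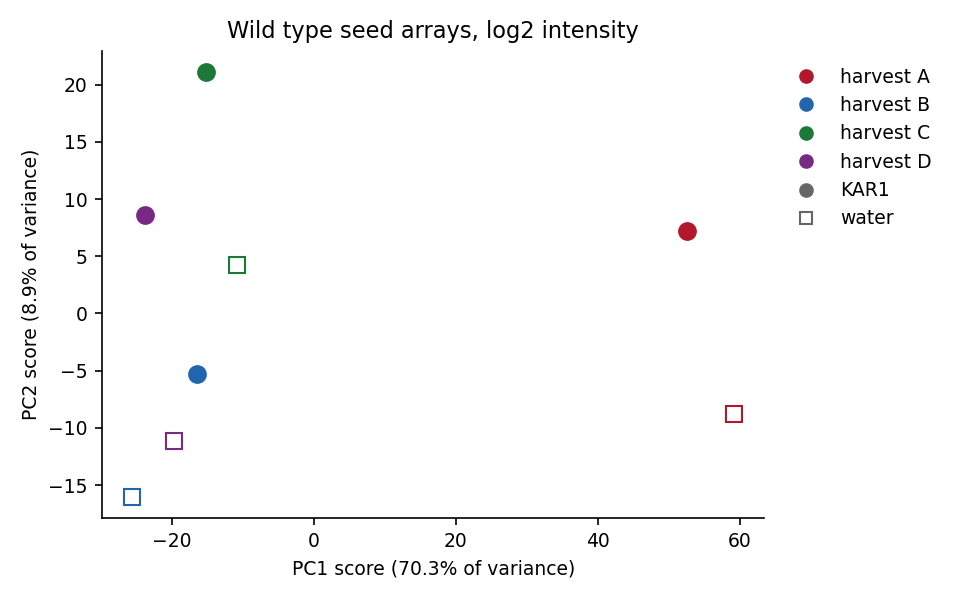
Scores of the 8 wild type arrays on the first and second principal component of log2 intensity over 11669 probe sets (filled circles KAR1, open squares water, one colour per harvest). Both arrays of harvest A lie at 52.6 and 59.2 on the first axis, and the 6 arrays of harvests B to D between -25.6 and -10.9.

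Harvest accounted for 83% of the summed variation of these probe sets and treatment for 7.0%. The contrast of A with B to D took up 83.1% of the harvest part. Between arrays of the same treatment, 9.9% to 15.6% of probe sets were at least 2-fold apart when 1 array was of harvest A, against 0.8% to 1.3% when both were of harvests B to D. Between the KAR1 and the water array of a harvest that share was 2.2% in A and 0.5% to 1.3% in B, C and D. On the plot of principal components the treatments of a harvest lay closer to each other than A lay to any other harvest.

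The count for A rested partly on having both of its arrays. Without the water array of A it was 3199, and without the KAR1 array of A 4140. The F test over 4 letters fell to 1891 calls without the water array of A and to 2704 without its KAR1 array. It gave 3527 and 3613 calls without the KAR1 or the water array of D, and 2952 when no probe set was left out for low intensity.

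The balance of directions depended on the scaling. With quantile normalization of the 8 arrays 2548 probe sets were higher and 3031 lower in A, so that 45.7% of calls were higher, against 34.6% in the values as deposited. The median difference of all probe sets, A minus the mean of B to D, was -0.12 on the log2 scale as deposited and -0.03 after quantile normalization. Direction also went with level. Among the 1020 probe sets with a mean log2 level of at most 4, 53.4% were higher in A and 13.1% lower, while between 6 and 8 it was 11.6% and 39.6% of 4010. Of the tested probe sets, 610 had passed the minimum of 16 on an array of A only, and such a probe set had to be higher there: 540 of them were called. On an array of B to D only 564 had passed it, and 283 of these were called, all lower in A.

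**Figure D2:**
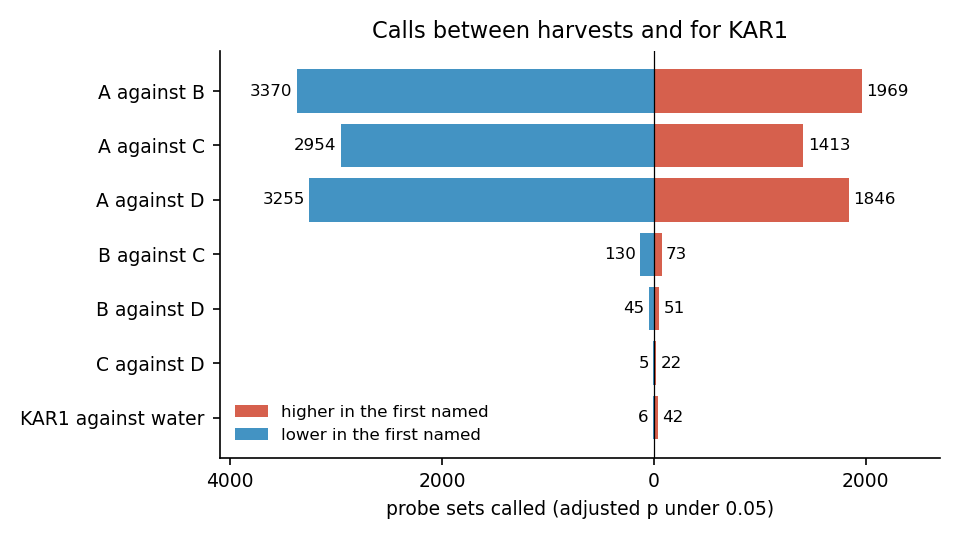
Number of probe sets called in limma (adjusted p under 0.05) for each pair of harvests and for KAR1 against water, to the right those higher and to the left those lower in the group named first. The 3 pairs with harvest A have between 4367 and 5339 calls, and the 3 pairs without it between 27 and 203.

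Pairs of harvests gave far more calls with A than without it. A differed from B by 5339 calls (45.8% of probe sets), from C by 4367 (37.4%) and from D by 5101 (43.7%). B differed from C by 203 calls (1.74%), B from D by 96 (0.823%) and C from D by 27 (0.231%). The last 3 counts hung on single arrays and settings. All 3 had 0 calls in limma when either array of A was left out, which there informs only the spread and the KAR1 effect. Between 1664 and 2382 probe sets then had an unadjusted p under 0.05. B against C had 489 calls without the KAR1 array of B. C against D had 129 calls without either array of B.

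Most transcripts of the plastid genome were higher in harvest A. All 69 plastid-encoded transcripts with a probe set were tested, 59 were higher and 4 lower in harvest A, where 17.7% and 33.4% of all probe sets were. Their median difference, A minus the mean of B to D, was 2.03 on the log2 scale, against -0.12 over all probe sets. The counts were the same after quantile normalization. Against single harvests, 56 were higher and 5 lower than in B (16.9% and 28.9% of all probe sets), 59 and 3 than in C (12.1% and 25.3%), and 62 and 3 than in D (15.8% and 27.9%). The median log2 level of the 69 was 10.01 on KAR1 and 10.25 on water in A, 8.78 and 8.11 in B, 8.06 and 8.42 in C, and 7.51 and 7.73 in D. It lay between 6.99 and 7.63 on the 6 arrays of ga1-3. The arrays of A thus lay above all 12 others in this median.

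**Figure D3:**
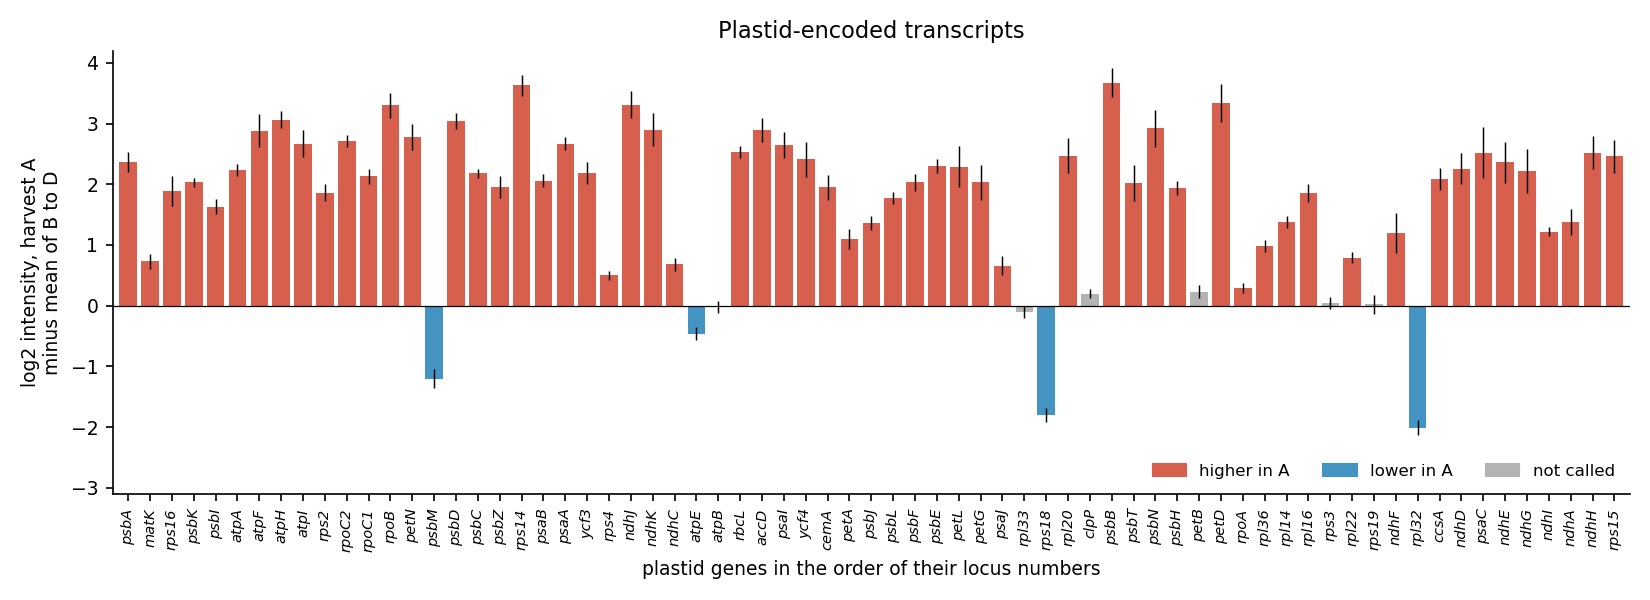
Difference in log2 intensity between harvest A and the mean of harvests B to D for each of 69 plastid-encoded transcripts, in the order of their locus numbers on the plastid genome (bars, difference; lines, standard error from limma). Of these 59 are higher in A, by 0.29 to 3.67, and psbM, atpE, rps18 and rpl32 are lower.

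Subunits of both photosystems were higher in A almost throughout. psbB, which encodes the CP47 antenna of photosystem II, had a log2 intensity of 11.77 and 11.92 on the KAR1 and water arrays of A, against 7.53 and 6.60 in B, 8.98 and 9.45 in C, and 8.05 and 8.44 in D. Its arrays of A lay above all others, with a difference of 3.67 ± 0.24 (12.76-fold, adjusted p = 2.02e-05). Of 15 photosystem II transcripts 14 were higher in A and psbM lower, and all 5 of photosystem I were higher, by 0.66 (psaJ) to 2.67 (psaA). rbcL, the large subunit of Rubisco, was at 9.03 and 9.15 in A, against a lowest, median and highest value of 5.86, 6.39 and 7.27 in B to D (2.53 ± 0.10, adjusted p = 2.7e-06).

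Transcripts of the cytochrome b6f complex and of ATP synthase did not all differ alike. petD, subunit IV of the cytochrome b6f complex, was higher in A by 3.34 ± 0.32 (10.16-fold, adjusted p = 0.000145), while petB, the cytochrome b6 gene just before it, had a difference of 0.23 ± 0.11 that did not pass (adjusted p = 0.119). Of the 6 ATP synthase transcripts, atpA, atpF, atpH and atpI were higher, by 2.23 to 3.06. atpE was lower by 0.46 (log2 difference -0.46 ± 0.11, adjusted p = 0.00989), and its neighbour atpB did not pass (-0.02 ± 0.10). All 10 transcripts of the NDH complex, which carries out cyclic electron flow around photosystem I, were higher, by 0.68 (ndhC) to 3.31 (ndhJ).

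The 4 subunits of the plastid-encoded RNA polymerase were all higher in A, rpoB by 3.30 ± 0.21, rpoC2 by 2.72 ± 0.10, rpoC1 by 2.13 ± 0.13 and rpoA by 0.29 ± 0.08. Of 15 ribosomal protein transcripts 10 were higher, 2 lower and 3 not called. rps14 was higher by 3.63 ± 0.17 (12.38-fold, adjusted p = 4.35e-06).

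The lower ones stood beside higher ones on the genome. rpl32 had a log2 intensity of 7.98 and 8.28 on the KAR1 and water arrays of A, against 9.63 to 10.73 in B to D, a difference of -2.01 ± 0.12 (adjusted p = 1.66e-05). rps18 was at 7.83 and 8.40 in A, against 9.36 to 10.47 (-1.80 ± 0.12, adjusted p = 2.41e-05), between rpl33, which did not pass (-0.10 ± 0.10), and rpl20, which was higher by 2.47 ± 0.29. psbM was lower by 1.20 (log2 difference -1.20 ± 0.15, adjusted p = 0.000505) between petN and psbD, which were higher by 2.78 and 3.04. The plot of plastid transcripts by locus number shows these breaks.

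In B to D the 59 raised transcripts had mean log2 levels of 5.65 to 10.91, and the other 10 of 9.07 to 11.52, so the ranges overlapped. In A the levels were closer together, with a standard deviation over the 69 transcripts of 0.91, against 1.49 in B, 1.30 in C and 1.61 in D. These levels of different probe sets are given as a spread only, since the response of probes differs.

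Harvests B, C and D also differed in plastid transcripts, less widely. Between B and D 13 of 69 were higher and 2 lower in B, where 0.437% and 0.386% of all probe sets were, with a median difference of 0.62. The highest of these was rps15 (2.07 ± 0.33, adjusted p = 0.0415). Between B and C 2 were higher and 6 lower in B, where 0.626% and 1.11% of all probe sets were. atpH, the ring subunit of ATP synthase, was at 7.14 and 7.12 on the KAR1 and water arrays of B, against 9.08 and 9.51 in C (-2.17 ± 0.17, adjusted p = 0.00264). Between C and D 4 were higher and 0 lower in C in limma (0.189% and 0.0428% of all probe sets).

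Harvest D had the lowest levels of several plastid transcripts. ndhK, an NDH subunit, was at 4.22 and 5.24 in D, against a lowest, median and highest value of 5.91, 6.62 and 8.80 in A to C (-2.35 ± 0.27, adjusted p = 0.00294). accD, the plastid-encoded subunit of acetyl-CoA carboxylase, was at 6.34 and 6.97 in D, against 7.61 to 10.65. psbN and petN were lower in D by 2.20 and 2.09 (-2.20 ± 0.30 and -2.09 ± 0.21). The other 3 harvests include A here, so these differences hold part of the distance of A.

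Mitochondrial transcripts were higher in A as well. Of 18 mitochondrion-encoded probe sets tested, 13 were higher (72.2%, against 17.7% of all probe sets) and 1 lower (5.6%, against 33.4%), with a median difference of 1.07. 2 of the 18 had reached 16 on an array of A only, and 11 of the other 16 were higher. Their median log2 level was 5.75 and 6.30 on the KAR1 and water arrays of A, 4.44 and 4.47 in B, 4.79 and 5.16 in C, and 4.0 and 4.15 in D. It was 5.05 to 5.80 in ga1-3, so the water array of A alone lay above all arrays of that genotype. nad6, a subunit of complex I, was at 7.75 and 7.93 in A, against 4.02 and 4.54 in B, 6.15 and 6.34 in C, and 5.0 and 4.78 in D (2.70 ± 0.15, adjusted p = 9.42e-06).

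For 5 probe sets the annotation names nad1, another complex I subunit whose coding parts lie scattered over the genome. All 5 were higher in A. For 2 of them the mean of B to D lay under 16, and they were at least 6.36-fold and at least 4.45-fold higher. The first had reached 16 on arrays of A only and so had to be higher. The other 3 were higher by 0.72, 1.11 and 1.71. cox1, of cytochrome c oxidase, was higher by 0.49 ± 0.12 (adjusted p = 0.00894), and cox2 did not pass (0.25 ± 0.13, adjusted p = 0.147). The cytochrome c assembly gene ccb382 was the lower one (-1.06 ± 0.26, adjusted p = 0.00942), while ccb206 was higher by 2.73 and ccb452 by 0.41.

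A stretch of chromosome 2 of this species carries a nuclear copy of much of the mitochondrial genome. Of the loci AT2G076 to AT2G078, which lie there, 25 probe sets were tested, and 22 were higher (88.0%, against 17.7% of all probe sets) and 0 lower in A in limma (against 33.4%). 8 of the 25 had reached 16 on an array of A only. Of the other 17, 15 were higher, where 13.8% of all probe sets so restricted were. AT2G07721 was the largest, with 9.42 and 9.51 in A, against a lowest, median and highest value of 4.15, 5.22 and 6.42 in B to D and at most 4.73 in ga1-3 (4.25 ± 0.12, 19.00-fold). AT2G07741 was at 10.81 and 10.78 in A, against 7.04, 7.51 and 8.76 (3.01 ± 0.13). Array probes cannot tell a nuclear copy from a near-identical organelle transcript, so the source of these signals is uncertain.

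The control probe sets, which were left out of the tests, moved with part of these differences. The 5S ribosomal RNA control, which like organelle RNA carries no long poly(A) tail, had a log2 intensity of 10.58 and 10.63 on the KAR1 and water arrays of A, 9.81 and 9.58 in B, 8.83 and 9.36 in C, and 8.72 and 8.21 in D. The 25S control did not follow it, with 3.95 and 3.92 in A and 3.34 to 6.92 in B to D. The actin control, read at its 3' and 5' ends, had a smaller 3' minus 5' difference in A (4.63 and 4.61) than in B to D (4.92 to 5.02). Other probe sets for the ends of actin did not set A apart, with 1.06 and 1.27 in A against 0.81 to 1.29. The GAPDH and ubiquitin controls did not set A apart, with 1.69 and 2.08 in A against 1.52 to 2.14, and 1.00 and 0.98 against 0.72 to 1.09. The 18 hybridisation spike controls did, with a median log2 level of 9.33 and 9.35 in A, against 8.73 to 9.14 in B to D. The part of RNA quality or labelling in the organelle result was not tested. With plastid and mitochondrial transcripts left out, 11582 probe sets remained, and A against B to D had 5902 calls, 1997 higher and 3905 lower. Each probe set is fitted by itself on unchanged values, so this count could differ only slightly from that over all probe sets. It is no check of RNA quality or labelling.

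**Figure D4:**
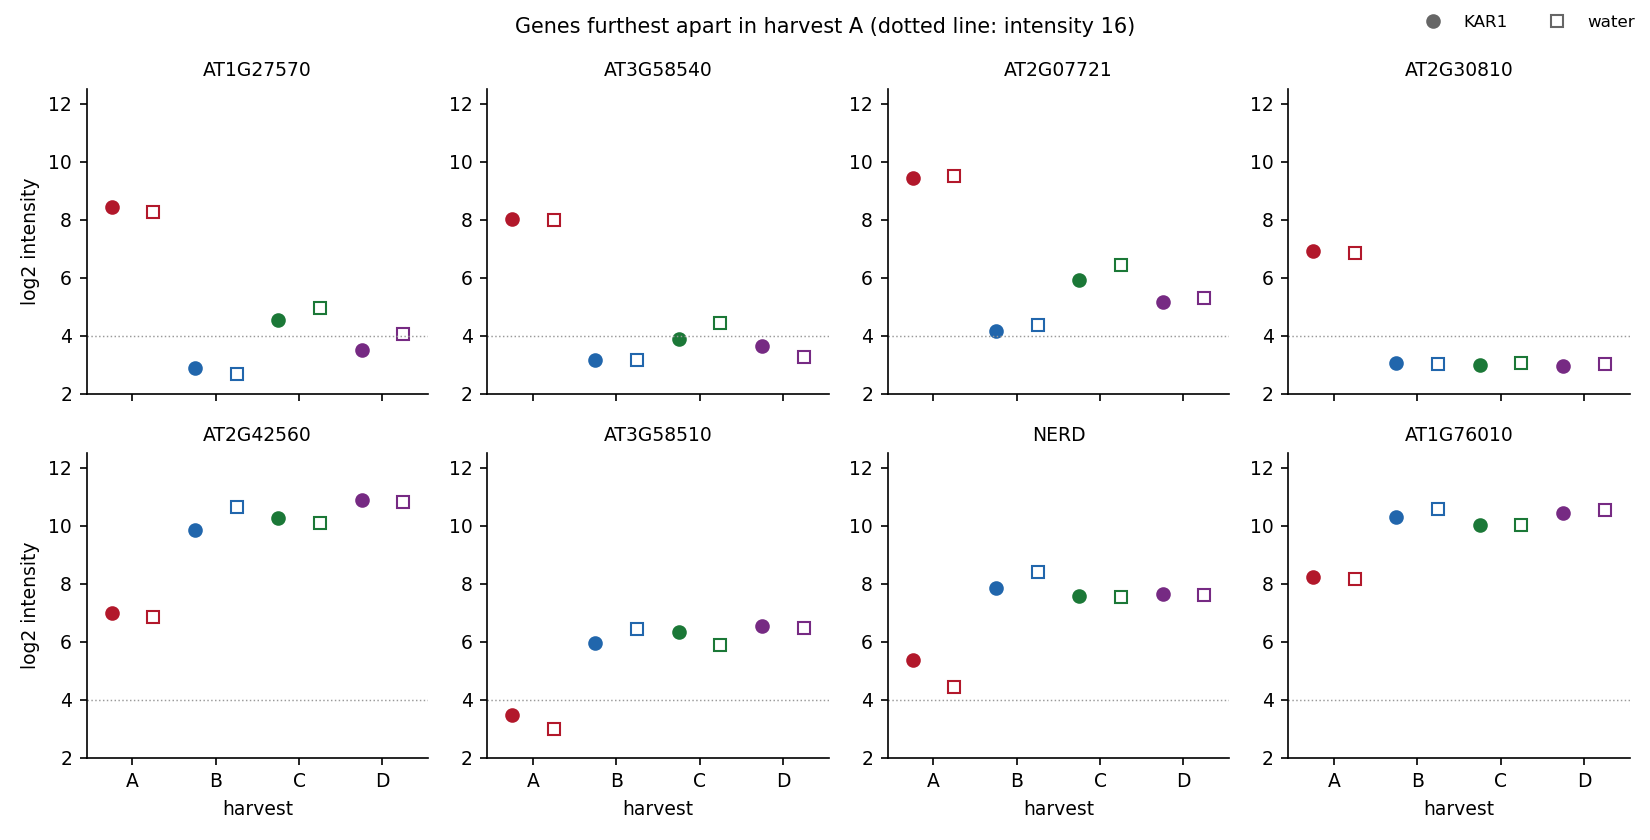
Log2 intensity of 8 genes on the 8 wild type arrays (filled circles KAR1, open squares water), 4 higher and 4 lower in harvest A. The dotted line marks an intensity of 16. In each panel both arrays of A lie outside the range of the other 6.

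Single genes outside the organelle genomes also lay far apart. By the rule for named genes, the 12 largest rises and 12 largest falls among calls with 1 gene were taken. On the log2 scale the differences were 3.80 to 4.58 for the rises and -3.53 to -2.10 for the falls. Choosing by size with no overlap fixes that the arrays of A lie outside the range of B to D. One of the rises, AT2G07721, is the locus of uncertain source described above. The rule did not use ga1-3. For the 12 falls all 6 ga1-3 arrays lay above both arrays of A. However, 7 of these falls had reached 16 on arrays of B to D only and so had to be lower in A. For the 12 rises all 6 ga1-3 arrays lay below both arrays of A. Of these rises 4 had reached 16 on arrays of A only, and 11 lay under 16 on all ga1-3 arrays. Probe sets called with no overlap between A and B to D that reached 16 on both sides were 1268 higher and 3094 lower ones. Among these, A also lay beyond the whole range of ga1-3 for 987 (77.8%) and 2534 (81.9%). The choice had already placed both arrays of A outside B to D, so high shares follow in part from it. The same applies to the 12 rises and 12 falls. No such share was taken for probe sets not chosen this way or for another harvest, so these shares are no separate check of A.

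AT1G27570 was the largest rise, with a log2 intensity of 8.43 and 8.25 on the KAR1 and water arrays of A. It lay at 2.87 and 2.66 in B, 4.55 and 4.94 in C and 3.49 and 4.04 in D, with a mean under 16, so it was at least 20.22-fold higher in A (4.58 ± 0.18, adjusted p = 2.7e-06). AT3G58540 was at 8.03 and 7.98 in A, against a lowest, median and highest value of 3.14, 3.44 and 4.44 in B to D (at least 16.09-fold). AT2G30810, of the GASA family of small cysteine-rich proteins, was at 6.91 and 6.83 in A, against 2.94, 3.02 and 3.07 (at least 7.29-fold). AT1G63590 was at 5.79 and 6.54 in A, against 2.07 on each of the 6 other arrays (at least 4.48-fold). The mean of B to D lay under 16 for all 4 of these genes.

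Of the 12 rises, 7 were loci that RefSeq lists as pseudogenes: AT2G02210, AT4G07450, AT1G32830, AT2G14130, AT2G14140, AT2G06430 and AT2G15150. In 6 of these the probe set name ends in _x_at, the platform's mark for probes that may bind transcripts of several genes, so their source is uncertain. AT2G14130 and AT2G14140 lie next to each other. AT2G02210 had 7.72 and 7.74 in A, against 2.81, 2.83 and 4.12 in B to D (at least 13.27-fold).

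The count for pseudogenes depended on the minimum. Of the 84 tested, 61 were higher and 4 lower in A, but 49 had reached 16 on an array of A only and so had to be higher. Of the other 35, 17 were higher and 4 lower, where 13.8% and 35.2% of all probe sets so restricted were. In the fit with no minimum, 96 of 989 were higher (9.71%), against 11.4% of all probe sets, and 19 were lower (1.92%), against 14.1%. Probe sets ending in _x_at kept a large share there, with 46 of 126 higher in A (36.5%) and 1 lower (0.794%).

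The largest fall was that of AT5G15780, of the family of Ole e 1 pollen proteins and extensins, with a log2 intensity of 2.63 on both arrays of A, against a lowest, median and highest value of 5.81, 6.10 and 6.61 in B to D. Its mean in A was under 16, and it was at least 4.49-fold lower there (-3.53 ± 0.16, adjusted p = 4.54e-06). It had reached 16 on arrays of B to D only and so had to be lower in A. AT2G42560, a LEA protein gene, was well above 16 on all arrays, with 6.99 and 6.84 in A, against 9.86 and 10.64 in B, 10.26 and 10.10 in C, and 10.89 and 10.82 in D. It was 11.41-fold lower in A (-3.51 ± 0.17, adjusted p = 5.29e-06), and its 6 ga1-3 values lay at 12.33 to 13.25.

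Among the other falls were genes for nucleic acid binding proteins. AT1G60200, a splicing factor of the RBM25 type, was at 2.77 and 2.41 in A, against 5.75, 5.86 and 6.11 in B to D (at least 3.68-fold lower). AT3G58510 and AT2G42520, both DEAD-box RNA helicases, were lower, the first by at least 4.83-fold and the other by 4.52-fold, with log2 differences of -3.04 ± 0.19 and -2.18 ± 0.19. AT1G76010, an Alba-type nucleic acid binding protein, was at 8.25 and 8.18 in A, against 10.02, 10.36 and 10.57 (4.29-fold lower). AT4G01290, which binds the cap-binding factor eIF4E, was at 3.25 on both arrays of A, against 4.83, 5.33 and 5.94 (at least 2.54-fold lower). These roles were set side by side after the values were seen, and no list of RNA binding proteins was tested.

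NERD, which takes part in RNA-directed DNA methylation, was at 5.38 and 4.45 in A, against 7.84 and 8.41 in B, 7.59 and 7.53 in C, and 7.66 and 7.62 in D (-2.86 ± 0.23, 7.25-fold lower, adjusted p = 6.19e-05). POL, the protein phosphatase POLTERGEIST of meristem signalling, was lower by 2.20 (-2.20 ± 0.16, at least 2.68-fold). AT1G02060, a pentatricopeptide repeat protein, was at least 3.75-fold lower, and AT5G54830 at least 1.56-fold, both with a mean under 16 in A. AT2G05580 had a log2 difference of -2.23 ± 0.19. Of the 12 falls, 7 had a mean under 16 in A, and these had reached 16 on arrays of B to D only.

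Some of these genes lie near each other. AT3G58510, lower in A, and AT3G58540, higher in A, have 2 genes between them on chromosome 3. Both of these were tested: AT3G58520 was lower by 0.60 (-0.60, adjusted p = 0.0234) and AT3G58530 did not pass (-0.17, adjusted p = 0.149). AT2G42520 and AT2G42560, both lower, have 3 genes between them, none of which was tested.

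LEA genes other than AT2G42560 differed little in A. Of 31 LEA and dehydration genes listed, 19 had a probe set and 15 were tested. Of these, 7 were lower in A (46.7%, against 33.4% of all probe sets) and 1 higher (6.7%, against 17.7%), with a median difference of -0.17, against -0.12. Apart from AT2G42560 the falls were small. AT3G53040 was at 12.01 on both arrays of A, against 12.22 to 12.87 in B to D (-0.55 ± 0.07, adjusted p = 0.000445). M17 was lower by 0.47 (-0.47 ± 0.07) and AT2G18340 by 0.61 (-0.61 ± 0.09).

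LEA4-5 was the higher one, with 13.08 and 12.99 in A, against 12.74 to 13.01 (0.15 ± 0.05, adjusted p = 0.0431), a call lost after quantile normalization, where 0 of the 15 were higher. The arrays of A overlapped those of B in this gene. Of 4 storage proteins 2 were lower and 0 higher in limma, where 33.4% and 17.7% of all probe sets were. AT2G18540 was lower by 1.07 (-1.07 ± 0.12, adjusted p = 0.000256) and AT2G28490 by 0.14 (-0.14 ± 0.05, adjusted p = 0.0446). The cupin AT1G03890 did not pass (-0.08 ± 0.10). The oleosin OLEO3 was higher by 0.26 ± 0.07 (adjusted p = 0.0145), and AT3G01570, another oleosin, did not pass (0.04 ± 0.05).

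Lists with a bearing on germination had few measured members, to be read against 17.7% of all probe sets higher and 33.4% lower in A. Both lipid mobilisation genes tested were lower in A: SDP1, the lipase that opens the breakdown of seed oil, by 0.64 (-0.64 ± 0.11, adjusted p = 0.00167) and ICL, isocitrate lyase of the glyoxylate cycle, by 0.21 (-0.21 ± 0.05, adjusted p = 0.00521). In the gibberellin list 1 of 4 was higher and 3 lower. SLY1, the F-box protein that removes DELLA repressors, was at 8.64 and 8.82 in A, against 7.80 to 8.49 in B to D (0.53 ± 0.11, adjusted p = 0.00444). SPY, a repressor of gibberellin signalling, was at 8.17 and 8.38 in A, against 9.04 to 9.40 (-0.90 ± 0.09, 1.87-fold lower, adjusted p = 0.000158).

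The receptor genes GID1A and GID1C were lower in A by 0.35 and 0.45 (-0.35 ± 0.07, adjusted p = 0.00533, and -0.45 ± 0.17, adjusted p = 0.0491), and after quantile normalization 2 of these 4 genes were lower. XERICO, which raises abscisic acid levels, did not pass (-0.11 ± 0.09, adjusted p = 0.372). Abscisic acid and dormancy had no other tested member of 26 listed.

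Of 4 light signalling genes tested 2 were higher in A and 0 lower, and the 1 clock gene tested was lower, where 17.7% and 33.4% of all probe sets were higher and lower. With no minimum 1 of the 4 was higher, against 11.4% of all. HYH, a bZIP factor of light signalling, was at 7.57 and 7.09 on the KAR1 and water arrays of A, against 7.38 and 6.60 in B, 6.92 and 6.5 in C, and 7.02 and 6.08 in D (0.58 ± 0.12, adjusted p = 0.00509). The cryptochrome inhibitor AT3G44450 was higher by 0.42 ± 0.15 (adjusted p = 0.0490). In both genes the water array of A lay within the range of B to D. AT2G16365 (-0.42 ± 0.16, adjusted p = 0.0521) and AT3G52740 (0.16 ± 0.10, adjusted p = 0.23) did not pass. GI, a clock protein, was lower, at 6.04 and 6.61 in A against 6.91 to 7.85 (-1.01 ± 0.13, adjusted p = 0.00062). PDF1.2, a jasmonate-responsive defensin, was higher, at 6.15 and 6.17 in A against 4.94 to 5.69 (0.91 ± 0.12, adjusted p = 0.000643).

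None of the 4 nuclear photosynthesis genes tested was called in limma. LHCB4.1, a light-harvesting protein, was at 8.34 and 8.40 in A, against 8.42 to 8.69 in B to D (-0.17 ± 0.08, adjusted p = 0.0917). PSBW, a nuclear subunit of photosystem II, had a difference of 0.26 ± 0.16 (adjusted p = 0.202). Of 50 such genes listed, 10 had a probe set with a gene name, so most were not read. Of 7 heat shock genes tested 1 was lower (14.3%, against 33.4% of all probe sets), AT1G53540 (-0.27 ± 0.09, adjusted p = 0.0383), and after quantile normalization 0 passed in limma.

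A difference was also seen along the line between A and B on the one side and C and D on the other, a contrast added after the values were seen. It had 2653 calls (22.7%), 970 higher (8.31%) and 1683 lower (14.4%) in A and B. Of the calls at least 2-fold apart, 272 were higher and 45 lower in A and B. Among the 69 plastid-encoded transcripts 60 were higher and 3 lower in A and B, with a median log2 difference of 1.14. Both arrays of A and B lay outside those of C and D for 866 probe sets (7.42%). Without a single array of C or D the calls were 656 to 1014, without the water array of A 1572 and without the KAR1 array of B 1645. The contrast holds A itself.

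**Figure D5:**
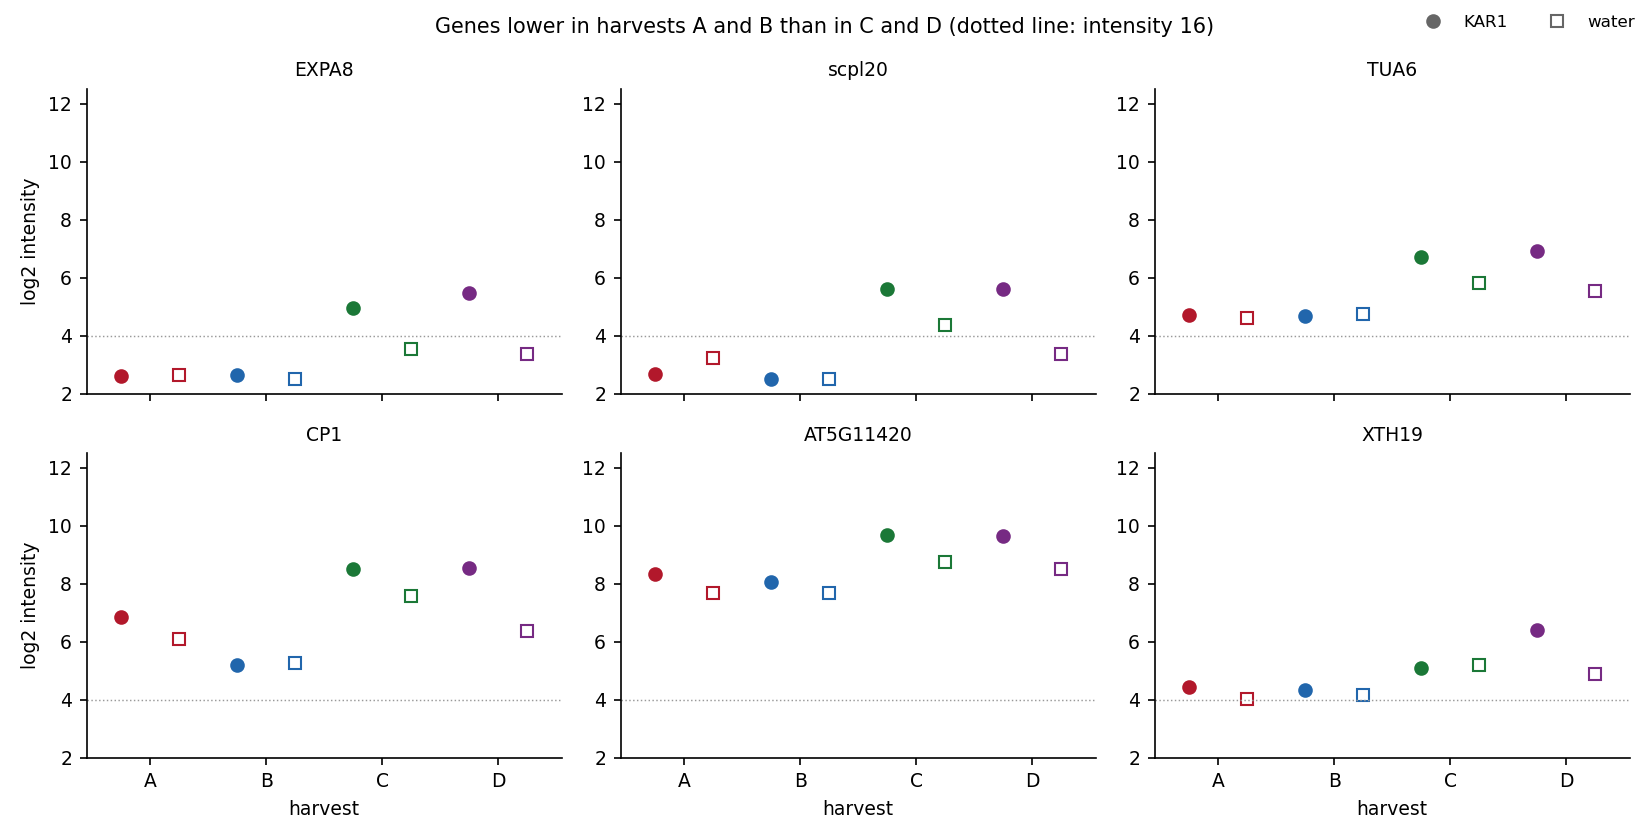
Log2 intensity of 6 genes on the 8 wild type arrays (filled circles KAR1, open squares water), with a dotted line at an intensity of 16. EXPA8 and scpl20 lie under the line on all 4 arrays of A and B and above it on KAR1 in C and D, and all 6 genes had their lowest values in A or B.

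The 6 genes plotted, chosen after their values were seen, were all lower in A and B. They do not stand for the contrast as a whole, in which most calls at least 2-fold apart were higher in A and B. EXPA8, an expansin that loosens cell walls, had a log2 intensity of 2.61 and 2.63 on the KAR1 and water arrays of A, 2.63 and 2.49 in B, 4.94 and 3.52 in C, and 5.45 and 3.35 in D. The mean of A and B lay under 16, and the gene was at least 1.24-fold lower there (adjusted p = 0.0107). TUA6, an alpha tubulin, was at 4.70 and 4.62 in A, 4.69 and 4.73 in B, 6.71 and 5.82 in C, and 6.92 and 5.52 in D (-1.56 ± 0.23, adjusted p = 0.00407). CP1, a cysteine protease, was at 6.86 and 6.09 in A, 5.19 and 5.27 in B, 8.52 and 7.57 in C, and 8.54 and 6.37 in D (-1.90 ± 0.29, adjusted p = 0.00471). In all 3 genes the KAR1 array stood above the water array in C and in D.

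The serine carboxypeptidase gene scpl20 was under 16 on all 4 arrays of A and B and at least 1.66-fold lower there (adjusted p = 0.0115). AT5G11420, a DUF642 cell wall protein, was lower by 1.20 (-1.20 ± 0.11, adjusted p = 0.000696). XTH19, a xyloglucan endotransglucosylase/hydrolase, was lower by 1.15 (-1.15 ± 0.24, adjusted p = 0.0135). In A against B alone 3 of the 6 genes, EXPA8, AT5G11420 and XTH19, had differences of 0.06, 0.14 and 0.00. CP1, however, stood higher in A (6.86 and 6.09) than in B (5.19 and 5.27). Its KAR1 array of A also lay above the water array of D (6.37).

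The poly(A) control transcripts, which the platform provides for adding before labelling, split the harvests along the same line. The median log2 level of the 24 poly(A) spike probe sets was 7.32 and 7.36 on the KAR1 and water arrays of A, 7.33 and 7.06 in B, 6.02 and 6.54 in C, and 5.90 and 6.05 in D. Seed lot and whatever set these controls cannot be told apart between A and B on the one side and C and D on the other. The 18 hybridisation spikes did not split that way, with 8.77 to 9.35 in A and B and 8.73 to 9.14 in C and D. These spikes did set A apart, with 9.33 and 9.35 there, against 8.95 and 8.77 in B.

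The difference between KAR1 and water was itself of unequal size over the harvests, as far as single arrays show. At least 2-fold apart were 253 probe sets in A, 127 higher and 126 lower on KAR1. In B it was 44 higher and 16 lower, in C 74 and 18, and in D 138 and 13. With 1 array per harvest and treatment these counts have no replicate check and were not tested.

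Of the 50 probe sets at least 2-fold higher on KAR1 in both C and D, 45 were also higher on KAR1 in A and 45 in B. Of all 11669 probe sets, 5765 were higher on KAR1 in A and 5467 in B. Their median KAR1 minus water difference was 0.69 in A and 0.54 in B on the log2 scale. AT3G60290, a 2-oxoglutarate-dependent oxygenase, stood higher on KAR1 by 1.66 in A, 0.80 in B, 1.81 in C and 2.05 in D. AT4G35110 did so by 1.82, 0.85, 1.84 and 2.26. The expansins EXPA8 and EXPA9 lay under 16 on all arrays of A and B, so that their difference there could not be read. For PYK10, a beta-glucosidase, the values were 0.43 and -0.27 in A and B and 1.47 and 1.86 in C and D. Since C and D chose these probe sets, their own values are no finding.

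Harvests B, C and D had differences of their own. Against the mean of the other 3 harvests, B had 1779 calls (15.2%; 8.48% higher and 6.76% lower), C 120 (1.03%; 0.523% and 0.506%) and D 957 (8.2%; 4.17% and 4.03%), each with A among the others. The count for B was 59 without its water array, 374 and 638 without the water or KAR1 array of C, and 394 and 627 without those of D. The count for D was 41 and 53 without its water or KAR1 array and 253 and 188 without those of C, and 1483 without the water array of B. The count for C was 0 in limma without any single array of C or D, with 989 to 2054 probe sets at an unadjusted p under 0.05, and 482 to 587 without an array of A or the water array of B.

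AT5G62210, of the ATS3 family of embryo-specific proteins, was highest in B. It had a log2 intensity of 10.62 and 10.29 on the KAR1 and water arrays of B, against 9.0 and 8.36 in A, 9.98 and 8.72 in C, and 8.47 and 6.93 in D (1.88 ± 0.20, 3.68-fold, adjusted p = 0.00365). Against D alone B was higher by 2.76 ± 0.25 (adjusted p = 0.00906). CHIL, a chalcone isomerase-like protein, and AT4G37290 had the same order, with 8.16 and 7.54 in B, against 6.65 and 4.93 in D for CHIL, and 7.52 and 6.88 in B, against 5.87 and 4.17 in D for AT4G37290. For all 3 genes the water array of D was the lowest of the 8.

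AT5G35660 was highest in D, with 8.57 and 8.76, against 5.82 and 5.52 in A, 7.33 and 7.89 in B, and 6.77 and 6.68 in C (2.0 ± 0.15, 3.99-fold, adjusted p = 0.000711). AT2G05580 followed the same order, with 8.58 and 8.78 in D, 5.69 and 5.62 in A, 7.6 and 8.55 in B, and 6.95 and 6.89 in C. Both genes were lower in C than in D (-1.94 ± 0.19, adjusted p = 0.0191, and -1.76 ± 0.23, adjusted p = 0.0302). In ga1-3 they lay at 9.14 to 11.30 and at 9.67 to 11.47, above every wild type array. AT4G34480 was also lower in C than in D (-1.43 ± 0.20, adjusted p = 0.0443), at 6.03 and 5.80 in C, against 7.25 and 7.43 in D.

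Of the 120 calls for harvest C, 28 were at least 2-fold apart, 5 higher and 23 lower in C. The genes named by the rule for C, without overlap with the other arrays, differed less widely. The kinase gene AT3G19100 was highest there, at 5.50 and 5.73, against a lowest, median and highest value of 3.67, 4.56 and 5.14 (1.04 ± 0.17, adjusted p = 0.0460). AT5G59170, an extensin-like protein, was lowest there, at 11.78 and 11.59, against 12.02, 12.18 and 12.54 (-0.54 ± 0.07, adjusted p = 0.0443). AT5G39960 was higher in C by 0.81 ± 0.11, and AT5G16110 lower by 0.70 (-0.70 ± 0.11).

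The range of the harvest means was at least 2-fold for 14.3% of the 11669 probe sets among Ler A to D and for 1.5% among Ler B to D, against 6.4% among the 3 harvests of ga1-3. These shares were not tested and are not on equal terms. The probe sets were chosen by reaching 16 on a Ler array, 610 of them on an array of A only. The range over 4 harvests is also wider by its number than that over 3. The ga1-3 harvests also differed in the controls. The hybridisation spikes had a median log2 level of 9.08 and 8.94 in ga1-3 A, against 7.10 to 7.39 in ga1-3 B and C. The poly(A) spikes had 5.64 and 6.16 in ga1-3 A, against 7.07 to 7.33. Seed lot and whatever set these controls cannot be told apart there. The ranges over the 4 wild type harvests and over the 3 of ga1-3 correlated at r = 0.03 across probe sets. For the ranges over Ler B to D and those of ga1-3 it was r = 0.2. Both are given as a description without a test. A shared letter does not mean shared seed, since the genotypes differ.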

How the data were processed

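RNA of seed was read on single-colour 3' expression arrays after biotin labelling of 7 ug of total RNA, per the labels' protocols. The deposited intensity is 1 value per probe set and array on a linear scale, made by the authors with GCRMA per the submitters' processing notes. The GCRMA version, and whether all arrays were normalized together, are not given in the sources used here. Arrays have no depth, and their number limits the precision.

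Of 22810 probe sets, 64 controls and 11077 under 16 on all 8 wild type arrays were left out. The log2 of the deposited intensity was fitted on the 8 arrays with limma 3.58.1 in R 4.3.3 (harvest plus treatment, eBayes with trend and robust). In a simulation of 11669 probe sets, 81 of 100 changes of 1 in A and 97 of 100 changes of 2 (log2) were called. So were 11 of 11469 unchanged ones. The simulation held far fewer changes than the real calls, no KAR1 effect, no difference among B to D and no handling shared by arrays. These rates need not hold for the real data. A fold whose lower mean lay under 16 is a bound against 16. Water and KAR1 arrays of a letter share their seed per the labels, so the harvest is the block of the KAR1 effect.

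Gene names came from the platform annotation, updated through RefSeq TAIR10.1: 6419 tested probe sets had 1 gene, 289 several, 5250 not exactly 1 gene, and 6386 matched RefSeq. Genes were named by size among calls without overlap (12 a direction for A, 4 for B, C and D), by the 8 smallest p over the 4 letters, and by up to 4 members per gene list. Those in pairs of harvests, in A and B against C and D and in the KAR1 comparison were named after their values were seen. The harvests and gene lists were chosen with earlier results of these data known. The lists for cell cycle, pathogen defence, endosperm, and testa and flavonoids had no tested member. The list of organelle RNA polymerases and sigma factors had 1, AT5G15700 (-0.21, not called), and that of cell wall loosening 2, EXPA8 and EXPA15 (-0.09, not called). Alternatives were other filters, a floor, quantile normalization, plain eBayes, no treatment term, no replicate block, all 14 arrays, and each array left out.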

Additional observations from a re-analysis of the deposited data

Results flagged for a closer look

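The 5S ribosomal RNA control was brighter in harvest A than on any other wild type array: its lower array of A had a log2 intensity of 10.58, against at most 9.81 in harvests B to D. This control belongs to no comparison between harvests.

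The poly(A) spike-in controls had a median log2 level of 7.06 or more on the arrays of harvests A and B, against at most 6.54 on those of C and D. They are bacterial control sequences and belong to no comparison between harvests.

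The plastid-encoded transcripts had a median KAR1 minus water difference of 0.37 in harvest B on the log2 scale, against -0.17 in A, -0.30 in C and -0.27 in D. In B 53 of the 69 stood higher on KAR1, 13 of them by at least 2-fold, while in A 60, in C 62 and in D 56 stood lower on KAR1. Of all 11669 probe sets, 5467 stood higher on KAR1 in B, 44 of them by at least 2-fold. Lower on KAR1 stood 5780 of these in A, 5624 in C and 5904 in D. The difference between B and the others rests on 1 array per treatment and harvest and was not tested.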

How the results depend on the processing

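A against B to D had 5957 calls and between 4619 and 6056 under the settings that kept all 8 arrays. The 24 genes named by size for A kept their direction and, where tested, their call in all 477 values under other settings and with single arrays left out, 17 of which moved. They were chosen from the same arrays as the largest calls with no overlap, so this follows largely from the choice. With 1 array left out in turn the counts ranged from 3199 to 6343 for A, 1891 to 5673 over 4 letters, 59 to 1792 for B, 0 to 587 for C, 41 to 1483 for D, and 656 to 2841 for A and B against C and D. For pairs they were 3051 to 5022 (A against B), 1401 to 4795 (A against C), 2198 to 5469 (A against D), 0 to 489 (B against C), 0 to 143 (B against D) and 0 to 129 (C against D), and for KAR1 0 to 175.

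With no filter on low intensity the test over 4 letters had 2952 calls, A and B against C and D 1446, B 309, D 318, and the KAR1 effect and the 3 pairs among B to D 0 each. Leaving out probe sets under 64 on all arrays gave 360 for C, 582 for B against C, 228 for B against D, 157 for C against D and 167 for KAR1. Setting intensities under 16 to 16 gave 22 for C, 607 for D, and 61, 5 and 0 for those pairs, and 0 for KAR1. Quantile normalization gave 29 for C. Plain eBayes gave 16, 0 and 0 for the pairs and 0 for KAR1. Without the treatment term B had 1177, C 22, D 593, and the pairs 38, 5 and 16. Over all 14 arrays C had 630, D 1482, the pairs 503, 216 and 77, and KAR1 158. With no replicate block KAR1 had 0 calls, against 48 with the harvest as block. Where limma gave 0, between 317 and 2539 probe sets had an unadjusted p under 0.05. The causes were not tested.

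EXPA8, AT5G11420 and XTH19 were lower in A than in B to D but had differences of 0.06, 0.14 and 0.00 in A against B alone. EXPA8 had means under 16 in A and in B to D. Of 1203 values for called genes in A against B to D, 1099 kept direction and call, 74 lost the call, 27 moved by more than the spread of the other arrays and 3 turned. The calls of AT1G53540, AT2G28490, AT3G44450, GID1C, EXPA8 and XTH19 were lost most often. No intensities of single probes were used, so signals near 16 limit the low genes.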
